A study of Mus musculus with 10 samples.

Results

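Cartpt-selected retinal ganglion cells (RGCs) were examined here among RGCs of adult mice, profiled by single-cell RNA-seq (scRNA-seq) with or without optic nerve crush (ONC). Cartpt encodes the precursor of the CART peptides. The cells were selected on their measured counts of 5 genes. A cell was taken when it held at least 5 Cartpt UMIs (unique molecular identifiers, which count captured RNA molecules) and at least 3 Cartpt UMIs per 10000 of its UMIs, with fewer than 1 UMI per 10000 of each of Opn4, Eomes, Foxp2 and Tbr1. The 4 latter genes mark melanopsin-containing RGCs (Opn4, Eomes), F-RGCs (Foxp2) and T-RGCs (Tbr1). The rule selected 359 of 2871 cells, of which 342 of 1683 were uninjured and 17 of 1188 were injured.

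ON-OFF direction-selective ganglion cells respond when light turns on and when it turns off, and fire most for motion in a preferred direction. Starburst amacrine cells, which release both GABA and acetylcholine, give them inhibition for motion in the opposite direction. CART marks these cells in the mouse retina, Mmp17 and Trhr have been used to mark subtypes that prefer motion along the horizontal axis, and Cdh6 and Col25a1 subtypes that prefer motion along the vertical axis. Many RGCs die after ONC, and injured RGCs switch on a shared set of injury genes such as Atf3 and Sox11.

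By the labels, uninjured and injured cells came from mice of both sexes at 12 weeks, and the strain given is 129S1/SvImJ. The injured cells were collected 2 weeks after ONC. In both conditions RGCs were purified by immunopanning for Thy1 after macrophages and, by the study's methods but not the labels, amacrine cells had been depleted, and retinas were pooled within a batch, so a library is no single animal. The 6 uninjured libraries are called uninjured 1 to 6. Injured 3 and injured 4 shared 421 cell barcodes, whose counts agreed within sampling noise, so each shared cell was counted once and both libraries were taken as 1 sample, injured 3/4, beside injured 1 and injured 2. The labels do not say that libraries of a condition came from separate animals, so p-values measure the spread between these samples, which may be technical.

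The selected cells numbered 8 to 136 in an uninjured sample and 5, 6 and 6 in the 3 injured samples, with 243930 to 5391411 and 80082 to 107415 summed UMIs. Their median UMIs per cell were 30297 in uninjured and 14174 in injured retina, against 27261 and 14048 in the other cells. Several features of the libraries moved with condition or sample, and counts without the cells or the sample in question are given with the results. No selected uninjured cell held a Xist UMI, against 3 of 5, 5 of 6 and 0 of 6 in injured 1, 2 and 3/4. In the other cells Xist UMIs were seen in 0.373% of uninjured cells and in 62.2%, 67.0% and 0.525% of injured 1, 2 and 3/4. Xist marks cells of females, so the label of both sexes was not borne out in the uninjured samples and injured 3/4. The vector transcript mCherry was found in 5 of the 6 selected cells of injured 3/4 and in 83.4% of its other cells. Elsewhere it was in no selected cell, and in 8.11% and 15.4% of the other cells of injured 1 and 2. Of the selected cells, 275 uninjured (80.4%) and 11 injured (64.7%) held UMIs of at least 3 marker genes of another retinal class, against 70.8% and 40.4% of the other cells. Some of these markers were seen in most uninjured cells, selected and other: Pax6 in 99.1% and 98.9%, Clu in 83.0% and 68.5%, Dkk3 in 81.0% and 57.1%, and Glul in 67.0% and 61.3%. Holding 3 markers therefore does not by itself show RNA of another class.

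All cells, selected or not, held UMIs of Rbpms, Slc17a6, Sncg and Tubb3, genes shared by RGCs by which the deposited cells had been kept, so these do not bear on the label. Col25a1 (chr3:129925150-130393532, plus strand, GRCm39), the other marker given for the cells, was present with at least 2 UMIs and at least 1 per 10000 in 12 of 342 selected uninjured cells (3.51%) and in 3.5% of the other uninjured cells. In injured retina it was present by the same limits in 3 of 17 selected cells (17.6%) and in 1.71% of the other cells. Hoxd10, a homeobox gene used to label direction-selective cells, was at 0 UMIs in selected and other cells alike. Drd4, a marker of a nasal-preferring subtype, had 1 UMI in selected cells and was seen in 0.224% of other uninjured and 0.171% of other injured cells. These 2 genes therefore could not tell selected from other cells. Since Col25a1 was about as common in the other uninjured cells, the cells are called Cartpt-selected RGCs below, after the rule, and not direction-selective cells. By the same kind of limits, 146 of the 225 uninjured cells positive for Tfap2d, a transcription factor of a set of RGC types, were among the selected cells, as were 24 of 30 for Trhr, 13 of 14 for Mmp17, 60 of 113 for Cck and 44 of 124 for Cdh6.

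The share of selected cells was compared first. They made up 19.4%, 7.77%, 17.4%, 20.9%, 24.0% and 25.9% of the cells of uninjured 1 to 6, and 1.48%, 2.2% and 1.04% of injured 1, 2 and 3/4. The 2 conditions did not overlap. The mean share was 19.2% ± 6.39 (SD, n = 6) without injury and 1.57% ± 0.585 (SD, n = 3) after it. The difference was -17.6 percentage points (p = 0.0238, two-sided exact test by permutation of the samples, and no smaller p can be had with 6 against 3). Some of these libraries were alike in their counts: the chi-square over sampling noise had a median of 1.44 to 2.12 between uninjured 1 and 2, 3 and 4, 5 and 6 and injured 1 and 2, and of 3.89 or more between other libraries of a condition, injured 3 and 4 aside. With each such pair as 1 unit the difference was -17.9 points (exact permutation p = 0.2, the smallest that 3 against 2 units allow). When every cell was thinned to 10000 UMIs, leaving out the shallower ones (1629 uninjured and 901 injured cells remained), the mean shares were 15.1% and 1.07%.

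Cartpt (chr13:100034990-100047006, minus strand) was also lower outside the selected cells. In the other cells it was at 103 to 158 CPM (counts per 1000000 UMIs) in uninjured and at 10.3, 28.3 and 11.2 CPM in the injured samples. These cells include 82, of which 7 were injured, that met both Cartpt limits and were left out by Opn4, Eomes, Foxp2 or Tbr1. The highest other cell of injured 2 stood at 39.1 Cartpt UMIs per 10000. A Cartpt UMI was seen in 70.8% of the other uninjured and in 11.4% of the other injured cells. In uninjured retina it was seen in 30.4% of Opn4-positive cells and in 81.3% of Foxp2-positive cells, and the part of free RNA, taken up by droplets, in these counts was not tested. A cell whose Cartpt fell under the limits counts as another cell. Loss of these RGCs and less Cartpt RNA per cell therefore cannot be told apart in the share.

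**Figure D1:**
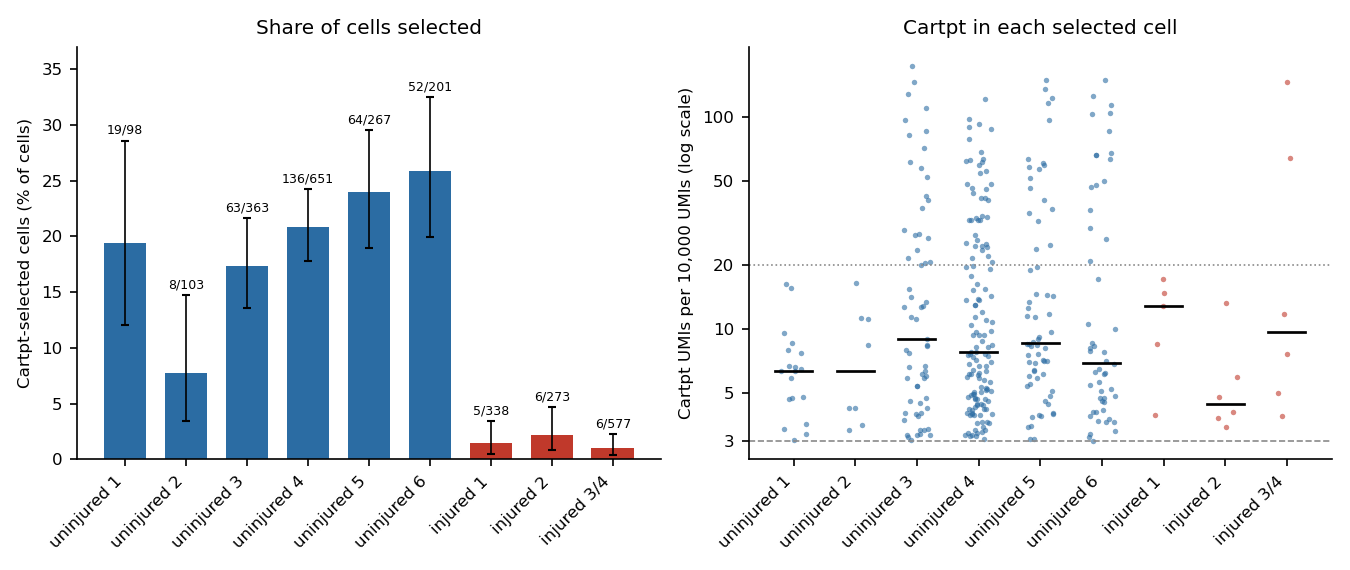
Share of Cartpt-selected RGCs among all cells of each sample and Cartpt UMIs per 10000 UMIs of each selected cell (log axis), by sample. The 6 uninjured samples held 7.77% to 25.9% selected cells and the 3 injured samples 1.04% to 2.2%. Selected cells at 20 per 10000 or more were seen in uninjured 3 to 6 and in injured 3/4.

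Selected cells ranged widely in Cartpt itself, which chose them and is given as a description. Of the uninjured cells 98 held 3 to 5, 102 held 5 to 10, 44 held 10 to 20, 52 held 20 to 50 and 46 held 50 or more Cartpt UMIs per 10000. All 98 cells at 20 or more came from uninjured 3 to 6, with 23, 40, 18 and 17 cells. None of the 201 cells of uninjured 1 and 2 reached 20, which allows a share of up to 1.49%. In uninjured 3 to 6, 6.61% of the cells were selected cells that reached it. Among injured cells, 2 of 1188 were selected cells that reached it, both in injured 3/4. Cells outside the selection stood at up to 51.5 per 10000 in uninjured 4 and 39.1 in injured 2. At the edges of the rule, 57 selected cells held 3 to 4 per 10000, and 91 cells with 5 or more Cartpt UMIs held 2 to 3 per 10000 and were not selected. A further 82 cells met both Cartpt limits and were left out by the 4 other genes.

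Several genes of subtypes stood highest in the cells with the most Cartpt. The ranges were drawn and the genes chosen after their values had been seen, over uninjured 3 to 6, and no test was run. Tfap2d stood at a mean of 17.9 CPM in the other cells, 66.2 CPM in selected cells at 3 to 10 Cartpt UMIs per 10000, 136 at 10 to 20 and 244 at 20 or more. Trhr, the receptor of thyrotropin-releasing hormone, stood at 2.80, 5.84, 1.70 and 55.6 CPM in the same order, and Mmp17, a membrane-bound metalloproteinase, at 1.61, 1.23, 1.70 and 35.7 CPM. Cck, which encodes cholecystokinin, stood at 17.6, 19.9, 24.7 and 172 CPM. Cdh6 stood at 34.8, 42.1, 77.2 and 131 CPM, and Col25a1 at 8.90, 2.23, 21.9 and 48.3 CPM. All of these genes were higher at 20 or more than at 3 to 10 without overlap of the 4 samples. In the uninjured samples 47 cells outside the selection were positive for Col25a1, against 0, 2 and 10 selected cells in the 3 ranges, and 80 were positive for Cdh6, against 19, 5 and 20.

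Genes outside the subtype set ran both ways. Sema3a, a secreted guidance cue, stood at 44.1, 82.6, 184 and 349 CPM, and Dab1, which relays the reelin signal, at 69.2, 126, 169 and 471 CPM. Gabrg3, a GABA-A receptor subunit, stood at 216, 390, 624 and 893 CPM, and Chrna3, a nicotinic acetylcholine receptor subunit, at 11.1, 38.3, 44.0 and 92.8 CPM. Lower in the cells with the most Cartpt were the cadherins Cdh4, at 242, 218, 199 and 100 CPM, and Cdh10, at 57.9, 63.7, 55.4 and 29.3 CPM. Kcnd2, a subunit of A-type potassium channels, stood at 952, 336, 189 and 62.3 CPM and Kcnip4, which binds such channels, at 6842, 3441, 2803 and 760 CPM. Penk, the enkephalin precursor, stood at 87.2 CPM in the other cells, 117 at 3 to 10 and 78.9 at 10 to 20, and had no UMI at 20 or more. Of 6326 genes with a mean of at least 30 CPM, 189 were higher and 218 lower at 20 or more than at 3 to 10 without overlap of the 4 samples.

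**Figure D2:**
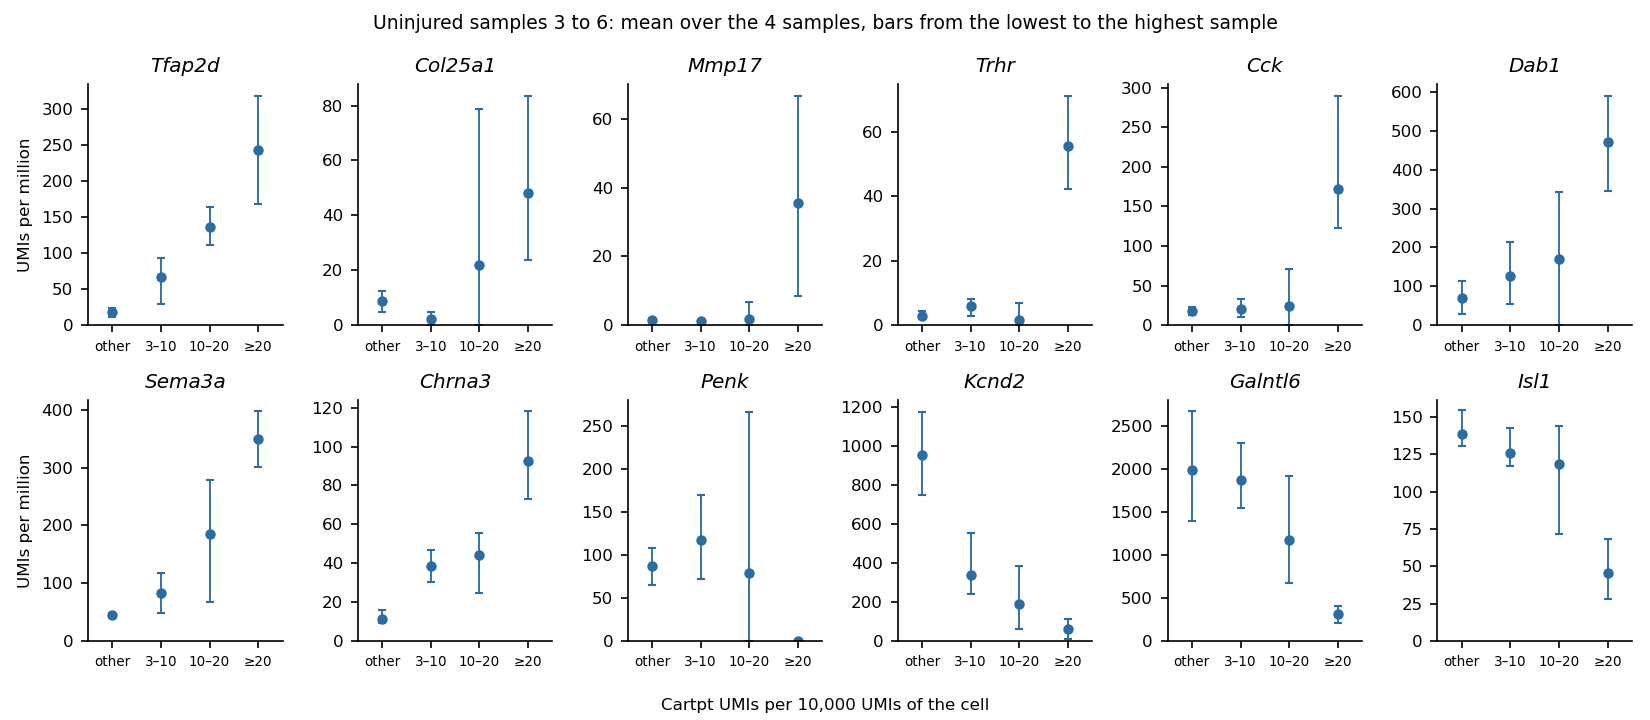
CPM (linear axis) of 12 genes in the other cells and in selected cells at 3 to 10, 10 to 20 and 20 or more Cartpt UMIs per 10000, as the mean over uninjured 3 to 6 with bars from the lowest to the highest sample. Tfap2d went from 17.9 in the other cells to 244 at 20 or more, and Kcnd2 from 952 to 62.3.

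Among the 98 cells at 20 or more, 84 were positive for Tfap2d, 42 for Cck, 22 for Mmp17 or Trhr, 20 for Cdh6 and 10 for Col25a1, each with at least 2 UMIs and 1 per 10000. No cell was positive for Col25a1 and for Mmp17 or Trhr, while all 10 Col25a1-positive cells were positive for Cdh6. Cdh6 was less separate, with 3 of its 20 positive cells positive for Mmp17 and 3 for Trhr. Of the 13 Mmp17-positive cells, 10 were also positive for Trhr. Cck and the pair Mmp17 and Trhr did not meet either, with 0 of 98 cells positive for both, whereas 6 of the 10 Col25a1-positive cells were Cck-positive. Sema3a was present in 75 of the 98 cells, in 12 of the 13 with Mmp17, in 17 of the 19 with Trhr and in none of the 10 with Col25a1. The cells with Mmp17 or Trhr came from each of uninjured 3 to 6 (6, 8, 6 and 2 cells), as did those with Col25a1 (3, 4, 1 and 2 cells). In 30 of the 98 cells none of Mmp17, Trhr, Cck and Col25a1 was positive.

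Col25a1-positive selected cells were compared with Col25a1-negative ones in the 2 samples that held at least 3 of each, uninjured 3 (3 against 60 cells) and uninjured 4 (6 against 130 cells). Cdh6, a type II cadherin, stood at 893 and 769 CPM in positive and at 51.5 and 45.4 CPM in negative cells, and the rise had a log2 fold change of 4.08 (edgeR, quasi-likelihood, Benjamini-Hochberg adjusted p = 2.18e-39). Cfap299 rose by a log2 fold change of 4.12, Bnc2, a zinc finger protein, by 3.58, Runx1, a transcription factor, by 2.75, and the noncoding Gm15825 by 2.62. Runx1 did not pass in cells thinned to 8000 UMIs (1.96, adjusted p = 0.316). Cell by cell, all 12 Col25a1-positive uninjured cells held Cdh6, Bnc2 and Tfap2d UMIs and none held a Trhr, Mmp17 or Cntnap4 UMI, while 1 held a Pcsk2 UMI. In the positive cells of uninjured 3 and 4, Pcsk2, a prohormone convertase, was at 0 UMIs and so at least 21.6-fold lower, against the limit that a count of 0 allows over the group. Cntnap4, a contactin-associated protein, was at least 16.5-fold lower. DESeq2 called neither of the latter genes. Of 10640 genes, 126 (1.18%) were higher and 274 (2.58%) lower. The comparison had 1 residual degree of freedom, and DESeq2 called 102 genes. It also contrasted levels of Cartpt, since 10 of the 12 Col25a1-positive uninjured cells but 98 of all 342 held 20 or more Cartpt UMIs per 10000. Cfap299 stood at 31.3 CPM at 20 or more and 4.68 CPM at 3 to 10, and Gm15825 at 57.8 and 11.9 CPM. The part of Cartpt level in the differences was not tested.

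Against the other cells of the same samples, the selected cells had more RNA of Tfap2d, Kirrel3, Chrna3, Pcp4 and Vsnl1, and less of Gal and Gria1. The comparison took the mean of the effects in uninjured and in injured samples, with the sample as a block and without the 5 genes of the rule. Of 13944 genes, 158 (1.13%) were higher and 464 (3.33%) lower in selected cells at an adjusted p of 0.05 (edgeR). Without injured 3/4 366 and without injured 1 378 genes were called in all. The split depended on scaling, since DESeq2 called 357 higher and 233 lower and library totals alone 256 and 220. The median log2 fold change of all genes was -0.12, and with the uninjured samples alone 275 genes were higher and 443 lower. Leaving out the cells that held at least 3 markers of another class left 1 injured sample, with 3 selected cells, so this was fitted in uninjured samples alone, with 67 selected cells in 5 samples, a choice made after the data were seen. There 34 genes were higher and 66 lower. Of the 10 genes named for the largest rises, Tfap2d (5.46, adjusted p = 0.0146), Kirrel3 (2.61, adjusted p = 0.0264) and Rasd2 (1.39, adjusted p = 0.00344) passed in it, and the other 7 did not, with Pcp4 at 0.36 and Vsnl1 at 0.61.

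Tfap2d had the largest rise among genes whose average log2 CPM was 5 or more. It stood at 29.7, 114 and 170 CPM (lowest, median and highest) in selected uninjured cells and at 6.33, 18.3 and 23.4 CPM in the others, and at 61.7, 112 and 200 CPM against 21.8, 14.8 and 24.7 CPM in injured 1, 2 and 3/4. Selected cells were higher in all 9 samples, and the log2 fold change was 2.58 ± 0.364 (SE, adjusted p = 0.0016). Kirrel3, an immunoglobulin-domain protein of synaptic adhesion, stood at 272, 362 and 721 CPM against 82.7, 130 and 253 CPM in uninjured samples. In injured 1, 2 and 3/4 it stood at 267, 503 and 749 CPM against 145, 106 and 117 CPM, with a log2 fold change of 1.64 ± 0.158 (SE, adjusted p = 1.48e-05). Both genes were higher in selected cells of every sample. Over both conditions without cells with markers of another class, 1 injured sample of 3 selected cells was left. The log2 fold changes of Tfap2d and Kirrel3 were then 4.16 and 0.05. Of 37 transcription factors of RGC types 3 were higher and 4 lower. Neurod2 (3.14) was among the higher, and its effect in uninjured samples alone was 0.86. Foxp1 (-0.98) and Lmo4 (-0.55) were among the lower. The rule kept Foxp2-positive cells out of the selection, while they made up 24.4% of the other uninjured and 10.7% of the other injured cells. The difference in Foxp1 with the other cells held to the same limit is not reported here.

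Further genes with large rises were Mgarp, a mitochondrial protein, at 1.67, Syndig1l, related to a synapse-inducing protein, at 1.42, Mgll, which breaks down an endocannabinoid, at 1.24, and Rbpms2, an RNA-binding protein, at 1.15, all as log2 fold changes. The effect of Mgarp in uninjured samples alone was smaller (0.70), and without injured 1 it did not pass (1.78, adjusted p = 0.0581). Ncam2, a neural adhesion molecule, rose by 0.95, and Rasd2, a small GTPase, by 0.88, but Rasd2 turned to -0.10 and did not pass in cells thinned to 8000 UMIs (adjusted p = 0.955). The gap in Mgll was wider in injured retina (1.60, adjusted p = 0.00014). It stood at a median of 340 CPM in selected and 259 CPM in other uninjured cells, and at 175, 158 and 150 CPM against 35.5, 36.6 and 27.4 CPM in the injured samples.

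Acetylcholine and GABA reach direction-selective cells from starburst amacrine cells, and receptor genes for both were among those that differed. Chrna3 stood at 16.4, 48.9 and 74.2 CPM in selected uninjured cells against 9.0, 11.4 and 15.7 CPM in the others. In injured 1, 2 and 3/4 it stood at 61.7, 27.9 and 49.9 CPM against 10.1, 6.97 and 7.50 CPM. It was higher in all 9 samples, by a log2 fold change of 2.25 ± 0.382 (SE, adjusted p = 0.000263), and of 8 nicotinic and muscarinic receptor genes tested 2 were higher and 0 lower (median 0.71). Chrnb3 was the other, at 1.08, and its effect in uninjured samples alone was 0.20. Of 20 GABA and glycine receptor genes, Gabra2 (1.12, adjusted p = 0.0499) and the GABA-B subunit Gabbr2 (0.43) were higher and 3 were lower, among them Gabrb2 (-1.08) and Glra1, around a median of 0.12. Gabra2 (0.67) and Gabbr2 (0.01) did not pass in uninjured samples alone.

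Of 16 genes of calcium-binding proteins 6 were higher and 1 lower, and the median was 0.43. Pcp4, a modulator of calmodulin, stood at 1308, 1923 and 2324 CPM in selected against 791, 1112 and 1774 CPM in other uninjured cells, and at 1500, 2430 and 1361 CPM against 654, 663 and 558 CPM in the injured samples (log2 fold change 0.94 ± 0.117, SE, adjusted p = 4.09e-05). Vsnl1 (0.95), Hpca (1.12), Hpcal1 (0.73) and Pcp4l1 (1.14) were also higher, as was Calb2 (0.46), which encodes calretinin. For Hpca, Hpcal1 and Pcp4l1 the effect in uninjured samples alone was 0.04, 0.00 and 0.11, and the difference between the conditions passed for each of them, as given further on. Ncald, the gene for neurocalcin delta, was lower (-1.28). Neither Calb2 (0.30) nor Ncald (-0.19) passed in uninjured samples alone.

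Genes of the direction-selective set gave a mixed result. Of 9 tested, Satb1, a chromatin organizer, was higher (0.84 ± 0.161, SE, adjusted p = 0.000881), with medians of 144 CPM in selected and 96.1 CPM in other uninjured cells and values of 175, 93.1 and 225 CPM against 64.9, 61.4 and 79.6 CPM in injured ones. Col25a1 was also higher (2.63, adjusted p = 0.0391), but in 5 of 9 samples, and its effect in uninjured samples alone was 1.16 with an adjusted p of 0.28. Its level rested on injured 1 and 2, at 329 and 149 CPM, while injured 3/4 had none. Cdh6 (1.48, adjusted p = 0.401), Cntn5 (0.43), Fstl4 (-0.21) and Cntnap4 (-1.38) did not pass. Mmp17 and Trhr were at 0 UMIs in the selected injured cells, and in uninjured samples alone their log2 fold changes were 2.67 (adjusted p = 7e-06) and 2.48 (adjusted p = 0.0014). The fitted median of the list was -0.21, and 0.84 with these genes at the limit set by 3 counts.

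Gal, the galanin gene, had the largest fall among genes with over 3 UMIs in selected cells of both conditions, at 0, 5.33 and 9.68 CPM in selected and 16.0, 33.3 and 57.4 CPM in other uninjured cells. In injured 1, 2 and 3/4 it stood at 61.7, 9.31 and 12.5 CPM against 219, 479 and 163 CPM, so it was lower in all 9 samples (-3.02 ± 0.21, SE, adjusted p = 4.87e-11). With the limits at 3 Cartpt UMIs and 2 per 10000 the difference was -0.95 and did not pass (adjusted p = 0.453). Of 16 peptide precursors 0 were higher and 3 lower, the others being Penk and the substance P gene Tac1 (-1.61). Penk had 2 UMIs in selected injured cells, 10.6-fold below the other injured cells (2.93 to 87.7), and in uninjured samples alone its difference was -0.55 (adjusted p = 0.0555). Tac1 did not pass in uninjured samples alone (-0.04, adjusted p = 0.9). Cck ran the other way there, higher by 2.00 (adjusted p = 0.0325), with a UMI in 27.2% of selected and 11.3% of other cells, and had no UMI in selected injured cells. Tbx20, a transcription factor of other RGC types, had no UMI in any selected cell and 17.4 to 38.7 CPM in the other uninjured cells, at least 95.8-fold lower. The rule itself kept Opn4-positive and Eomes-positive cells out of the selection, and these made up 4.18% and 7.01% of the other uninjured cells. A value of Tbx20 with the other cells held to the same limit is not reported here.

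Glutamate receptor genes counted 0 higher and 6 lower of 24 (median -0.08). Gria1, an AMPA receptor subunit, stood at 28.2, 50.5 and 61.6 CPM against 34.9, 106 and 164 CPM in uninjured samples and at 103, 112 and 25.0 CPM against 229, 218 and 165 CPM in injured 1, 2 and 3/4 (-1.28 ± 0.147, SE, adjusted p = 3.23e-08). It was lower in all 9 samples. Of 50 channel genes 4 were higher, among them Kcna2 (0.88), Kcnh1 (0.73) and Scn1a (0.49), and 6 lower, among them Kcnc2 (-0.82), Scn3a (-0.61) and Kcnq3 (-0.56). In uninjured samples alone Kcnh1 (0.40) and Scn3a (-0.43) passed, and Kcna2 (0.02), Scn1a (-0.0035), Kcnc2 (-0.16) and Kcnq3 (0.19) did not. Kcnq5, an M-type potassium channel, was lower by 2.25 in uninjured samples and had 2 UMIs in selected injured cells. It did not pass when the other cells, too, were held to the limit on Opn4, Eomes, Foxp2 and Tbr1 (-2.31, adjusted p = 0.232).

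Adhesion and wiring genes went both ways, with 6 higher and 11 lower of 66 (median -0.12). Beside Kirrel3 and Col25a1, the ephrin Efnb2 (1.5), Sema5a (1.10), Epha4 (0.94) and Tenm2 (0.32) were higher, of which Efnb2 passed in uninjured samples alone (0.97) and Sema5a (0.09), Epha4 (0.16) and Tenm2 (0.23) did not. Pcdh15 stood at a median of 29.1 CPM in selected and 84.4 CPM in other uninjured cells and at 175, 177 and 112 CPM against 723, 663 and 534 CPM in the injured samples (-1.94 ± 0.275, SE, adjusted p = 0.00653). Plxna4, a semaphorin co-receptor (-1.41), Tenm1 (-1.26), Cntn3 (-1.25) and Lrrc4c (-0.95) were lower too. Chl1, an L1-family adhesion molecule, was at 0 UMIs in selected injured cells, at least 7.31-fold below the other injured cells, and lower by 1.11 in uninjured samples.

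Genes shared by RGCs counted 2 higher (Sncg, 0.44, and Nefh, 0.59) and 1 lower (Tubb3, -0.40) of 15, and markers of other RGC types 2 higher and 3 lower of 17. Of 12 granin and processing genes Chgb (0.45) was higher and Pcsk2 (-0.77) and Pcsk1n (-0.34) lower. Of 18 trophic and cytokine receptor genes Il1rapl1 (0.61) was higher and 3 were lower, with Ntrk3, the NT-3 receptor (-1.04), and Ret, the GDNF receptor (-0.73). Of 39 axon injury genes 0 were higher and 12 lower, whereas in uninjured samples alone 1 was higher and 2 lower of 28. None of 17 immediate early genes passed. In uninjured samples alone Nefh (-0.03), Tubb3 (0.07), Pcsk1n (0.01), Il1rapl1 (-0.01) and Ret (0.28) did not pass.

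Of markers of other retinal classes, Pax6 among 11 amacrine genes (0.14 and not passing in uninjured samples alone) and Clu among 8 genes of Müller glia and astrocytes were higher, and no tested starburst, bipolar, photoreceptor, microglia or vessel gene passed. The summed glial list ran from 246 to 479 CPM in selected and 177 to 263 CPM in other uninjured cells, with 9 and 10 of its 10 genes detected, and from 380 to 661 CPM against 330 to 489 CPM in injured samples. In selected cells most of these UMIs were of Clu, Dkk3 and Glul. In uninjured 4 they held 652, 944 and 233 UMIs, against 64 of Apoe and 16 or fewer of each other gene of the list. The amacrine list ran from 570 to 1219 CPM in selected and 700 to 1064 CPM in other uninjured cells, and from 484 to 649 CPM against 320 to 559 CPM in injured samples. The starburst list ran from 63.7 to 195 CPM against 147 to 205 CPM in uninjured samples. In injured ones it ran from 154 to 205 CPM against 83.3 to 97.6 CPM, without overlap, with 3 of its 8 genes detected in selected cells. Most of those UMIs were of Isl1, which is also counted among the genes shared by RGCs. In selected cells of injured 1, 2 and 3/4 it held 14, 20 and 12 UMIs. Gad1 held 1, 0 and 2 there, and Slc32a1 held 0, 2 and 0. The part of these cells or RNAs in the results was not tested.

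**Figure D3:**
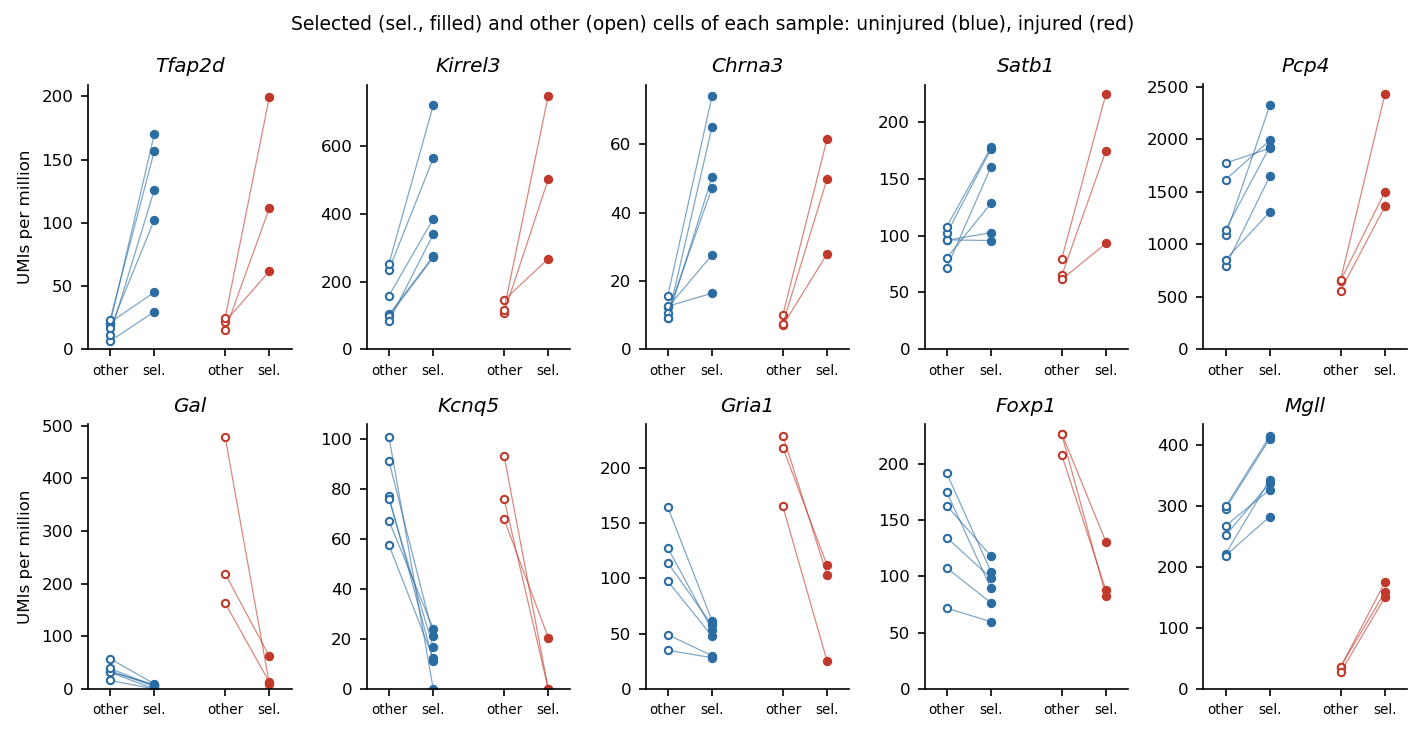
CPM (linear axis from 0) of 10 genes in selected (filled) and other (open) cells, joined within each of 6 uninjured (blue) and 3 injured (red) samples. Tfap2d, Kirrel3 and Chrna3 were higher and Gal and Gria1 lower in the selected cells of all 9 samples.

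Injured selected cells were compared next with uninjured ones, in 6 uninjured sums and 3 injured sums of 5 or 6 cells. Genes of axon injury were higher in the injured ones. Atf3, a stress-induced transcription factor, stood at 0, 0.712 and 1.61 CPM in uninjured and at 432, 465 and 99.9 CPM in injured 1, 2 and 3/4, with no overlap (log2 fold change 8.27 ± 0.48, SE, adjusted p = 1.9e-09), and was seen in 11 of 17 injured cells. Sox11, a transcription factor of neuronal development, stood at 27.6, 30.1 and 57.4 CPM and at 740, 670 and 499 CPM (4.27 ± 0.241, SE, adjusted p = 1.05e-09), and in all 17 cells. Jun, a component of AP-1, stood at 30.4, 56.8 and 127 CPM and at 596, 568 and 425 CPM (3.06 ± 0.383, SE, adjusted p = 0.000219). Ecel1, an injury-induced endopeptidase, had no UMI in the selected uninjured cells and 267, 642 and 400 CPM in injured ones, at least 1681-fold higher.

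Of 7819 genes tested, 217 (2.78%) were higher and 225 (2.88%) lower after injury. The split was 318 and 218 with DESeq2, 178 and 76 with limma-voom, 183 and 291 with TMM factors from genes with at least 10 counts in every sum, and 70 and 18 without cells with markers of another class, where 1 injured sample of 3 cells was left. Of 25 axon injury genes tested 16 rose and 0 fell, with a median of 2.25 against -0.06 over all genes. Ddit3, a mediator of the endoplasmic reticulum stress response, rose by 3.12, Gadd45a, a DNA damage gene, by 2.82, Gap43, a growth cone protein, by 1.55 and Atf4 by 1.29. H2-K1, a class I heavy chain, rose by 6.14, from a median of 4.87 CPM to 370, 661 and 287 CPM, and B2m, its light chain, by 5.76, to 298, 680 and 99.9 CPM. H2-K1 UMIs were seen in 6 and B2m UMIs in 5 of the 17 cells, so their levels rested on few cells. Tnfrsf12a, a receptor of the TNF family, rose by 5.63 and Egr1 by 2.97. Egr1 had 5, 15 and 33 UMIs in injured 1, 2 and 3/4, and it did not pass without injured 3/4 (1.96, adjusted p = 0.134) or without injured 2 (3.07, adjusted p = 0.0779). Of peptide and granin genes Adcyap1, the PACAP precursor (2.25), Vgf (2.39) and Cpe (0.79) rose. Nts and Sprr1a were not tested and stood at 0, 186 and 337 CPM and at 432, 531 and 0 CPM in injured 1, 2 and 3/4, against 2 UMIs and 1 UMI in the uninjured cells.

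Irx6 and Irx4, which are homeobox genes, had 662 and 526 UMIs in uninjured and none in injured selected cells, at least 5.56-fold and 4.41-fold lower. Of 12 calcium-binding genes 0 rose and 5 fell (median -1.34). Calb2 fell by 3.08 on the log2 scale, from 3335, 5951 and 11307 CPM to 534, 1052 and 949 CPM, Ncald by 2.98, Hpca by 2.55 and Vsnl1 by 1.44. Necab2 was left with 1 UMI and was 29.1-fold lower (95% interval 5.22 to 1152, counting error only). Of 6 nicotinic and muscarinic receptor genes 0 rose and 2 fell. Chrnb3 fell by 2.51 on the log2 scale and Chrna6, with 3 UMIs left, was 24.0-fold lower (8.20 to 116). Of 17 GABA and glycine receptor genes 0 rose and 3 fell, among them the GABA-A subunit gene Gabrg1 (-2.05). Of 41 channel genes Scn2b (-2.35), Scn8a (-1.60) and Kcnc2 (-1.44) fell and Kcnma1 (0.94) rose, and of 21 glutamate receptor genes Grin2a (-1.94) and Gria3 (-1.04) fell.

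Genes named as higher in selected than in other cells took different courses after injury. Among them Vsnl1, Hpca, Calb2 and Chrnb3 fell, as given above, as did Rbpms2 (-2.07) and Mgll (-1.17), whereas Nefh and Clu rose. Tfap2d (0.05, adjusted p = 0.989), Kirrel3 (0.18, adjusted p = 0.84), Chrna3 (-0.22, adjusted p = 0.876) and Satb1 (0.10, adjusted p = 0.91) did not pass. Of 7 direction-selective genes, Cntnap4 fell (-1.95) and 0 rose. Of 15 genes shared by RGCs Nefh, the neurofilament heavy chain, rose (1.35) and Nefl fell (-0.79). Among 3 glial genes tested, Clu rose (1.73) and Dkk3 fell (-3.01). Of the remaining lists, 4 adhesion genes rose and 3 fell of 59, 0 transcription factors rose and 2 fell of 28, and Igf1r, the IGF-1 receptor (0.95), rose among 12 trophic receptor genes. Without the cells that held Xist UMIs, which left 2, 1 and 6 selected cells in injured 1, 2 and 3/4, 82 genes were called and 8 of 21 axon injury genes rose. Without injured 2, 142 genes were called, and without injured 1 and injured 3/4, 260 and 289.

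**Figure D4:**
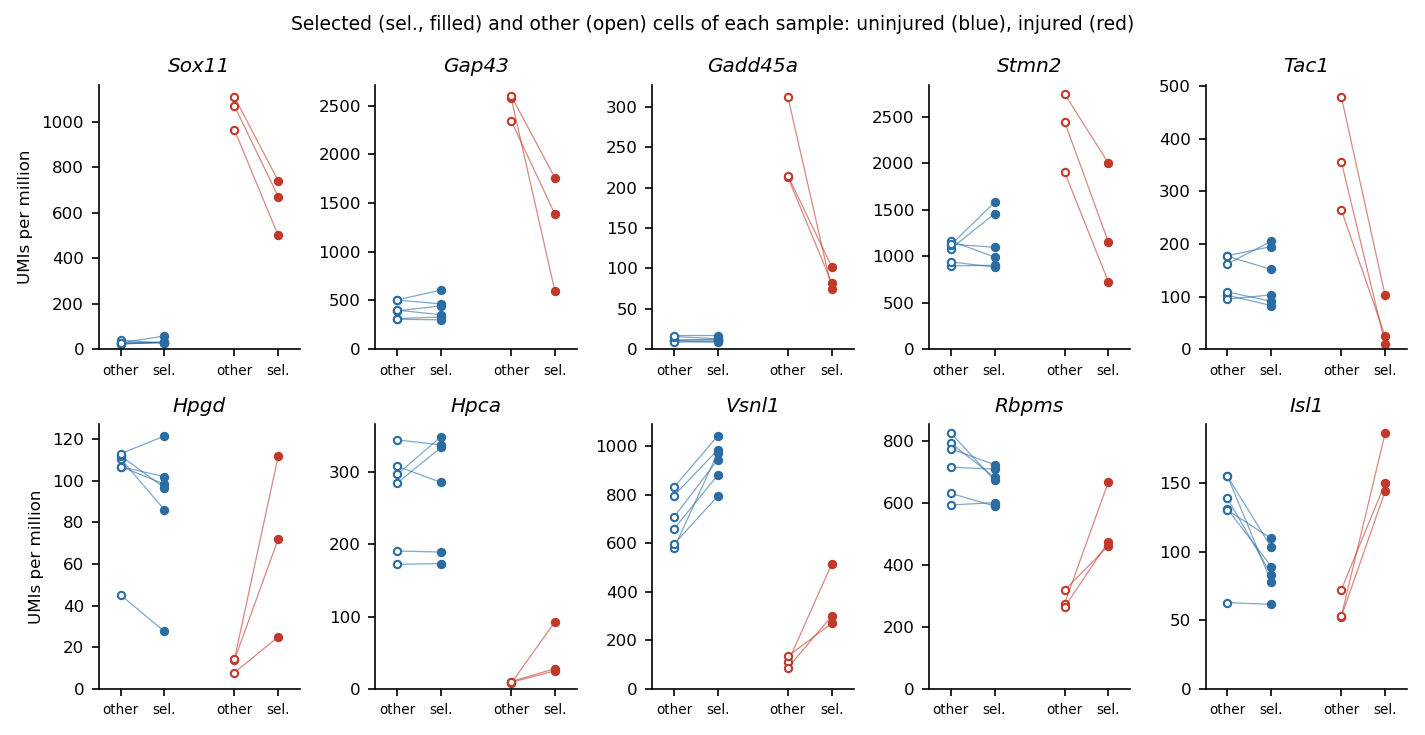
CPM (linear axis from 0) of 10 genes in selected (filled) and other (open) cells, joined within each of 6 uninjured (blue) and 3 injured (red) samples. Sox11 in selected cells stood at 27.6 to 57.4 CPM in uninjured and at 499 to 740 CPM in injured samples, below the 964 to 1108 CPM of the other injured cells.

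The difference between injured and uninjured cells, called the response here, was then set against that of the other cells, in the same model as the comparison with the other cells. Injured cells were selected by their Cartpt after injury, and Cartpt was lower in injured cells outside the selection too, so these were cells that still met the limits. A response of the cells selected before injury and a choice of cells by the Cartpt they kept cannot be told apart, in this comparison or in the previous one. Of 13944 genes, 90 (0.645%) had a response that was higher in selected cells and 234 (1.68%) a response that was lower. The split depended on scaling here too, with 245 and 117 under DESeq2 and 166 and 98 with library totals alone, and the median over all genes was -0.20. Without injured 1, 184 genes were called in all. The axon injury list held 0 genes with a higher and 10 with a lower response of 39, with a median of -0.86. It counted 0 higher and 7 to 14 lower under every other setting but one, where cells with markers of another class were left out and 1 injured sample of 3 cells remained (0 and 0).

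Sox11, Gap43, Gadd45a and Stmn2 were among the genes of the axon injury list with a lower response. Sox11 stood at 1108, 1069 and 964 CPM in the other cells of injured 1, 2 and 3/4 against 740, 670 and 499 CPM in the selected cells, from medians of 26.4 and 30.1 CPM without injury. Its response was 5.33 in the other cells and lower by 1.20 in the selected ones (SE 0.207, adjusted p = 0.000227). Gap43 stood at 2582, 2603 and 2346 CPM against 596, 1760 and 1386 CPM (-1.33 ± 0.242, SE, adjusted p = 0.00433), Gadd45a at 213, 215 and 313 CPM against 82.2, 102 and 74.9 CPM (-1.70 ± 0.312, SE, adjusted p = 0.000439). Stmn2, a regulator of microtubules, stood at 2445, 2745 and 1905 CPM against 1151, 2002 and 724 CPM (-1.25 ± 0.195, SE, adjusted p = 0.000101). In each of the 3 injured samples these 4 genes were lower in selected than in other cells. The tubulin genes Tubb2b (-1.36) and Tubb3 (-0.94) and the transcription factors Klf6 (-1.11), Atf4 (-0.96) and Ddit3 (-0.79) also differed, and Crh, with 1 UMI in selected injured cells, was 19.5-fold below the other injured cells (3.5 to 772). Atf3 (-0.71, adjusted p = 0.855) and Jun (0.23, adjusted p = 0.883) did not pass.

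**Figure D5:**
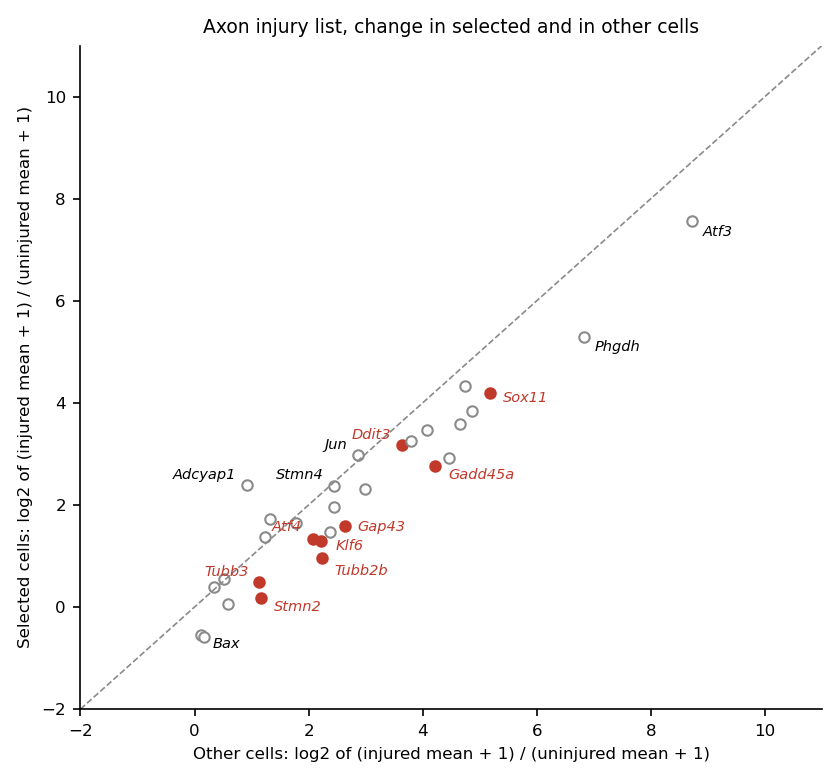
Log2 of injured over uninjured mean CPM, each with 1 added, in selected cells (vertical axis) against other cells (horizontal axis), for the 31 axon injury genes with at least 3 UMIs in selected cells of both conditions. Genes whose responses differed are red, and Sox11, Gap43, Gadd45a and Stmn2 lie below the dashed line of equal change.

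Among genes with a higher response in selected cells, Hpgd, which degrades prostaglandins, stood at 13.9, 14.2 and 7.82 CPM in the other cells of injured 1, 2 and 3/4 and at 71.9, 112 and 25.0 CPM in the selected cells, from medians of 109 and 97.5 CPM without injury (2.46 ± 0.429, SE, adjusted p = 0.00023). Hpca stood at 7.71, 10.2 and 9.02 CPM against 92.5, 27.9 and 25.0 CPM (2.17 ± 0.5, SE, adjusted p = 0.0078), but did not pass without injured 1 (1.11, adjusted p = 0.586). Isl1, a LIM homeobox gene of RGC identity, stood at 52.8, 52.9 and 72.4 CPM against 144, 186 and 150 CPM, with 135 and 86.2 CPM as medians without injury (1.73 ± 0.292, SE, adjusted p = 0.000166). Rbpms (0.79), Nefh (1.24) and Ebf1 (0.59) also had a higher response, and Nefh rose in the selected cells (1.35) with a change of 0.00 in the others. Thus of 15 genes shared by RGCs 4 had a higher and 1 (Tubb3) a lower response (median 0.32).

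Of 16 calcium-binding genes 4 had a higher response, Hpca, Pcp4l1 (2.06), Hpcal1 (1.46) and Vsnl1 (1.03), and Ncald a lower one (-2.19), around a median of 0.85. Of 50 channel genes Kcna2 (1.72) and Scn1a (0.99) were higher and Kcnq3 (-1.5), Kcnc2 (-1.32) and Kcnma1 (-0.85) lower. Of 66 adhesion genes 5, among them the guidance genes Sema5a (2.01), Nrp1 (1.74) and Epha4 (1.55) and the contactin Cntn6 (1.83), were higher and 3 lower. Fndc5, the precursor of irisin (2.34), B3galt2, a galactosyltransferase (2.34), and E130218I03Rik (2.16) also had higher responses. Without injured 1, Fndc5 (1.86, adjusted p = 0.254) and B3galt2 (1.63, adjusted p = 0.379) did not pass.

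Of 16 peptide precursors 0 had a higher and 2 a lower response, Tac1 and Crh. Tac1 stood at 356, 480 and 265 CPM in the other cells of injured 1, 2 and 3/4 and at 10.3, 102 and 25.0 CPM in the selected cells, from 136 and 127 CPM as medians without injury (-3.15 ± 0.333, SE, adjusted p = 1.96e-08). Of 12 granin and processing genes 0 had a higher and 4 a lower response, Vgf (-0.81), Scg2 (-0.81), Cpe (-0.74) and Pcsk1n (-0.69). Cntnap4 turned in opposite directions, rising in the other cells to 386, 394 and 327 CPM and standing at 20.6, 9.31 and 62.4 CPM in the selected cells (-5.14 ± 0.876, SE, adjusted p = 0.0284). It lost its call in 6 of 25 settings, with -4.99, -4.71 and -6.23 when injured 1, 2 and 3/4 were left out in turn (adjusted p = 0.128, 0.105 and 0.0672). Man1a, a Golgi mannosidase, had 2 UMIs in selected injured cells, 23.9-fold below the others (6.62 to 198), and Adarb2, a paralog of RNA-editing enzymes, had none, at least 7.30-fold below. With 17 injured cells in 3 samples, a gene at 10.5 CPM on average gives 3 UMIs in all, so levels near that value rested on single UMIs.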

How the data were processed

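Reads had been aligned by the authors with Cell Ranger (version 7.0.1 and mm39 in the submitters' processing notes), and the deposited values are UMI counts of each gene in each RGC, not normalized. All deposited cells met the limits given in the methods (at least 500 genes, at most 20% mitochondrial UMIs, at most 150000 UMIs), doublets were not called again, and 0 columns were left unused. The members and the gene lists were chosen with earlier results of these data known.

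Counts were summed per sample over selected and over other cells (Python 3.11.15, pandas 2.3.3, numpy 2.4.6, scipy 1.17.1). Sums of samples with at least 5 selected cells (3 where cells with markers of another class were left out, 1 without Xist cells) entered edgeR 4.0.16 under R 4.3.3 (filterByExpr, TMM factors, robust quasi-likelihood fit, Benjamini-Hochberg adjustment at 0.05), with DESeq2 1.42.0 and limma 3.58.1 (voom) as alternatives. Scripts were tested on simulated data. Levels are CPM of the summed UMIs without TMM factors. Fold changes are log2 and come from the fit, except that a group with 0 UMIs is compared at a limit of 3 counts over the group and one with 1 to 3 UMIs by its ratio with an exact 95% interval. Intervals and limits cover counting error only. Shares were compared with exact permutation tests.

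Named were, in each direction, the 10 passing genes of largest change (5 for the difference of responses and for Col25a1) whose average log2 CPM was 5 or more. For selected against other cells and for Col25a1 they had to move alike in all samples. For injury their levels, and for the difference of responses their gap between selected and other cells, were not to overlap between conditions. Also named were the genes of each of 21 lists that passed, and all direction-selective genes. Not every such gene is printed, and some are not reported here. Alternatives covered scaling, tool, filters, limits on Cartpt and depth, and each replicate left out. Positions are from GENCODE on GRCm39. Other experiments of the study were not analysed here.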

Additional observations from a re-analysis of the deposited data

Results flagged for a closer look

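In 80 sets of values over the 6 uninjured samples, the sample at either end was compared with its nearest neighbour. In 3 sets it lay far from the rest, where chance gives about 1 in 20. Gm26871 was highest in the other cells of uninjured 1, at 253 CPM. Sox11 was highest in the selected cells of uninjured 2, at 57.4 CPM, in a sum over 8 cells. Hpgd was lowest in the other cells of uninjured 1, at 45.2 CPM.

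The response to injury differed between selected and other cells by a test of the difference for 5 genes in each direction (edgeR, values as log2 differences). They were taken by fitted change among passing genes with an average log2 CPM of 5 or more. Their gap between selected and other cells did not overlap between the conditions. The differences were 2.46 for Hpgd, 2.34 for Fndc5, 2.34 for B3galt2, 2.17 for Hpca, 2.16 for E130218I03Rik, -5.14 for Cntnap4 and -4.70 for Man1a. Adarb2, Chl1 and Scnm1 had no UMI in selected injured cells, at least 7.30-fold, 7.31-fold and 1.9-fold below the other injured cells, so their place among the 5 rested on fitted values that have no bound. Man1a had 2 UMIs there. The call of Scnm1 was lost in 9 of 25 settings, among them DESeq2 (adjusted p = 0.0613) and each injured sample left out in turn.

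The vector transcript mCherry, which no comparison used, was present in 5 of the 6 selected cells of injured 3/4 and in 0 selected uninjured cells. The labels do not describe these cells as treated with a vector, and its source was not tested.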

How the results depend on the processing

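The share of selected cells was lower in injured samples under every setting run, but it lost significance in an exact test at 20 or more Cartpt UMIs per 10000 (-4.50 points, p = 0.238), at 20 Cartpt UMIs in cells thinned to 10000 UMIs (-4.68, p = 0.0952), with similar libraries as 1 unit (-17.9, p = 0.2) and with the replicate number as a block over libraries 1 to 3 (-13.3, p = 0.25), where the smallest p allowed is large. Leaving out each replicate gave -19.9 to -16.3, with an exact p of 0.0714 where an injured sample was left out. The replicate number did not pair the samples: same-numbered samples correlated at -0.0894, -0.0277 and -0.112 in selected cells. The block gave 266 called genes after injury in selected cells, against 333 in those libraries without it.

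Counts of called genes moved with tool, filter, cells and replicate. For selected against other cells, 622 were called, 2084 with limma-voom, 234 with at least 10 counts in every sum, 45 without cells with markers of another class (100 in uninjured samples alone), 1499 at 20 or more Cartpt UMIs per 10000, and 366 to 753 when a replicate was left out. For injury in selected cells, 442 were called, 254 with limma-voom, 898 without a filter, 192 with at least 10 counts in every sum, 684 at 3 Cartpt UMIs and 2 per 10000, 241 in cells thinned to 8000 UMIs, 88 without cells with markers of another class, 261 with 6 selected cells drawn per uninjured sample, 82 without cells with Xist UMIs, and 142 to 488 when a replicate was left out. For the difference of responses, 324 were called, 1513 with limma-voom, 191 with at least 10 counts in every sum, 34 without cells with markers of another class, 546 without cells under 1% ribosomal protein UMIs, and 184 to 417 when a replicate was left out (184 without injured 1). For Col25a1, 400 were called, 102 with DESeq2 and 55 in thinned cells. The filter at 10 counts tests fewer genes, and leaving out cells with markers of another class leaves 1 injured sample of 3 selected cells, which is assumed to vary like the uninjured ones and says little of stability. The other causes were not tested.

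Of named genes under the alternatives, 538 of 605 values kept direction and call for selected against other cells, 455 of 490 for injury, 215 of 251 for the difference and 44 of 50 for Col25a1. Rasd2 reversed in cells thinned to 8000 UMIs (-0.10), and Egr1 without cells with markers of another class (-5.98). The limit of 10 Cartpt UMIs and 5 per 10000, or 10 selected cells per sample, left too few injured samples to fit injury or its difference, and for Col25a1 no replicate could be left out. Leaving aside the fit over both conditions without cells with markers of another class, other calls of printed genes were lost as follows. In uninjured samples alone without those cells, Chl1 (-1.57, adjusted p = 0.388) and Pcdh15 (-1.15, adjusted p = 0.175) did not pass against other cells. In the difference, Scnm1 lost its call in 9 of 25 settings. Among them were DESeq2 (-3.74, adjusted p = 0.0613), the injured 4 copy of shared cells (-1.93, adjusted p = 0.34) and each injured sample left out. In selected against other cells, Mgarp also lost its call without injured 1 and with similar libraries summed, Syndig1l without injured 2 or 3/4, Rasd2 without injured 1 or 2, Pcdh15 with 10 selected cells per sample, Kirrel3, Chl1 and Pcdh15 at 20 Cartpt UMIs per 10000 (adjusted p = 0.097, 0.176 and 0.232), and Rasd2 and Tfap2d at 3 Cartpt UMIs and 2 per 10000 (Tfap2d 2.31, adjusted p = 0.057). After injury, Egr1 lost its call without Xist cells and with similar libraries summed, Irx4 without Xist cells and with the injured 4 copy of shared cells, and Necab2 with limma-voom and without injured 2. In the difference, Hpgd lost its call without injured 2 (1.96, adjusted p = 0.0908), B3galt2 without injured 3/4, Fndc5, B3galt2, Hpca and Chl1 in thinned cells, Hpca, Adarb2 and Chl1 at 3 Cartpt UMIs and 2 per 10000, Hpca against other cells without Cartpt, and Adarb2 with similar libraries summed. The settings at 20 Cartpt UMIs, with 6 cells drawn, without Xist, with uninjured samples alone, with TMM factors from genes with 10 counts in every sum, without X- and Y-linked genes, with other cells under 3 Cartpt UMIs per 10000, and with uninjured samples alone without cells with markers of another class were chosen after seeing the data.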
